A study of Mus musculus with 2 samples.

Results

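The 10 genes described here carry the glucocorticoid and mineralocorticoid signal inside cells: the receptors Nr3c1 and Nr3c2, the corticosteroid-converting enzymes Hsd11b1 and Hsd11b2, and 6 genes known to be induced by glucocorticoid, Fkbp5, Tsc22d3, Sgk1, Zbtb16, Mt1 and Mt2. They were chosen by name, and all 10 were found among the 55536 genes of the tables. They were measured by total RNA sequencing of whole adrenal glands from male B6CASTF1/J mice, offspring of a cross between C57BL/6J and CAST/EiJ, at 36 days of age. There is a single group of 2 libraries, labelled as biological replicates, with no treatment, transgene or control, so the values are levels in this tissue and their spread between 2 libraries. Libraries were prepared from 300 ng of RNA after removal of ribosomal RNA, with the strand kept and ERCC spike-in RNA added. The labels assign the tissues to animals Male 03 and Male 04 but name Male 03 for both libraries and give both the same donor identifier. It is therefore not settled that the libraries come from separate animals, and each p-value below measures counting error between 2 libraries and not the spread between mice.

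The adrenal cortex makes corticosterone, the main glucocorticoid of the mouse, and aldosterone, and its own cells are exposed to both. The glucocorticoid receptor, encoded by Nr3c1, waits in the cytoplasm in a complex with HSP90 and its co-chaperones, and on binding hormone moves to the nucleus and acts at palindromic DNA sites. The mineralocorticoid receptor, encoded by Nr3c2, binds corticosterone as tightly as aldosterone. The enzyme made from Hsd11b2 protects it in kidney by inactivating corticosterone, whereas the enzyme made from Hsd11b1 works mainly in the opposite direction and regenerates active hormone from its inactive 11-keto form. Among the target genes, Fkbp5 encodes an HSP90 co-chaperone that lowers receptor affinity, Tsc22d3 encodes the anti-inflammatory protein GILZ, Sgk1 encodes a kinase that promotes sodium uptake, Zbtb16 encodes the zinc finger factor PLZF, and Mt1 and Mt2 encode metallothioneins that bind zinc and copper.

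The sequences just before the transcription starts of Mt1, Mt2 and Sgk1 are shown because these genes are known to answer to metals and to glucocorticoid through short motifs there, and because the starts of Sgk1 differed between the libraries in the values given further on. They are taken from RefSeq on GRCm38.p6, the assembly also called mm10. Each runs 5′ to 3′ on the strand of the gene, covers the 250 bases before the RefSeq start, and is numbered so that -1 is the last base before the start. In the windows of Mt1 (chr8:94178839-94179088, plus strand) and Mt2 (chr8:94172368-94172617, plus strand), capitals mark the metal response cores TGCACNC and TGCGCNC on either strand.
Mt1: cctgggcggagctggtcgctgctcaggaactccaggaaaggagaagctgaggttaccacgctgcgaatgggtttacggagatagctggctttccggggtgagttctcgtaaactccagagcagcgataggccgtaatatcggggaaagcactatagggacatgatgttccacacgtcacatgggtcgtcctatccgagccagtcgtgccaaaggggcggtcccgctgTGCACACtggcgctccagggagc
Mt2: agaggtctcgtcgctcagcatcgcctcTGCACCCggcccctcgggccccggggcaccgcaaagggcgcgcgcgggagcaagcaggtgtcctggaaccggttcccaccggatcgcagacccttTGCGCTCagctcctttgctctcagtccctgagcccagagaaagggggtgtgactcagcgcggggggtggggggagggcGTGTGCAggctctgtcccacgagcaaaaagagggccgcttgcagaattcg

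The Mt2 window held 3 metal response cores, TGCACCC at -223 to -217, TGCGCTC at -128 to -122 and, read on the minus strand, GTGTGCA at -50 to -44. The Mt1 window held 1, TGCACAC at -23 to -17. Bases after the RefSeq start were not searched. Some annotated transcripts start there, Mt1-202 and Mt1-203 at 94179211 to 94179241 and Mt2-201 at 94172664. The cores counted are therefore those of the windows and not of the whole promoters. Of 32851 RefSeq windows of this length, 10.4% held TGCACNC, 12.5% held TGCGCNC and 5.17% held at least 2 such cores. The Mt1 window also held ACATGATGT at -92 to -84, a match to ACANNNTGT, the inner part of a glucocorticoid response element, which 5.84% of windows held.

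For Sgk1, 3 windows are shown, and capitals mark ACANNNTGT and the half-site AGAACA on either strand. They precede the start of transcripts Sgk1-210 and Sgk1-213 (chr10:21978422-21978671), of Sgk1-202 (chr10:21993640-21993889) and of Sgk1-201 (chr10:21994416-21994665), all on the plus strand.
Sgk1-213: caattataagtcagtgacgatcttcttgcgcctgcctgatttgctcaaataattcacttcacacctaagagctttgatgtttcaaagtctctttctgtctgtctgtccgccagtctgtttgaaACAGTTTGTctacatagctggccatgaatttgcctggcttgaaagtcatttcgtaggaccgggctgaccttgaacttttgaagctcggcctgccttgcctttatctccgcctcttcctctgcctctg
Sgk1-202: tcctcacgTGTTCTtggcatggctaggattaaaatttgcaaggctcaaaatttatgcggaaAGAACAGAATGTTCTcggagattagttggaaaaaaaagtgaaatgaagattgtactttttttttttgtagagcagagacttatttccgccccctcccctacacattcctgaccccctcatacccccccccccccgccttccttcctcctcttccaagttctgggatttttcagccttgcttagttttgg
Sgk1-201: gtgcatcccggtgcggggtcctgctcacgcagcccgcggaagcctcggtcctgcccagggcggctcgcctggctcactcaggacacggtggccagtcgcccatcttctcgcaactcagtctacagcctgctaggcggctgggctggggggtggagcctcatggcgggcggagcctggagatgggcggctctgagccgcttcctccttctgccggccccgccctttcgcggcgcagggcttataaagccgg

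The window of Sgk1-202 held the palindrome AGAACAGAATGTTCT at -189 to -175, which contains a match to ACANNNTGT and a half-site on each strand, and a separate half-site on the minus strand at -242 to -237. This layout, AGAACA and TGTTCT with any 3 bases between them, was searched for after the sequence had been seen, and 3 of the 32851 windows held it (0.00913%). The half-site alone was in 16.1% of windows. The window of Sgk1-213 held 1 inner match, ACAGTTTGT at -127 to -119, and that of Sgk1-201 held none of these motifs. A window was found for 7 of the 10 genes, 14 windows in all, and none for Hsd11b2 or Zbtb16. Nr3c1 was not searched. Windows not shown also held matches. A half-site lay before Sgk1-204 (-195 to -190) and before Sgk1-203 and Sgk1-212 (-13 to -8). Another lay before the upstream Tsc22d3 start at 140600522 (-185 to -180), while the windows of Tsc22d3-202 and Tsc22d3-206 held none. No window preceded the start of Tsc22d3-201, the leading Tsc22d3 transcript, so the bases before it were not searched. A metal response core lay before Nr3c2-203 (TGCGCAC, -29 to -23) and in the Hsd11b1 window (GTGTGCA, -237 to -231). In the window before the start of Fkbp5-201 (chr17:28486150-28486399, minus strand), which gives the leading Fkbp5 transcript, no match to any of these motifs was present. These matches describe letters of the reference sequence and not occupied sites, and differences between the parental alleles of these mice were not examined.

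The tissue carried the markers of its label. Depth was 35813366 expected counts for replicate 1 and 30628771 for replicate 2. All 8 adrenal cortex markers and all 8 chromaffin cell markers of the medulla were detected in both libraries, with summed levels of 14800 and 8240 TPM (a level corrected for length and scaled to the library's sum) for the cortex list and 1460 and 1710 TPM for the chromaffin list. Other tissues were present too, and unequally: 6 pancreas markers summed to 0.340 TPM in replicate 1 and 7090 TPM in replicate 2, 6 liver markers to 13.9 and 107 TPM, and 8 adipocyte markers to 2090 and 2030 TPM. Of the pancreas markers, Pnlip and Cpa1 were at 0 counts in replicate 1. Of 7 kidney distal tubule markers, whose cells are known for Nr3c2 and Hsd11b2, 2 were high enough to test, Aqp2 with 70 and 33 counts (1.5 and 0.64 TPM) and Kcnj10 with 32 and 52 counts. Of the others, Slc12a1 and Avpr2 were at 0 counts in both libraries and Umod was at 0 and 4. Calb1 was at 1 and 4, and Slc12a3 at 0 and 6. In the second transcript file Calb1 had 9.88 and 12.7 counts and Slc12a3 had 26.0 and 44.3. The list summed to 1.72 and 1.03 TPM, above the level of Hsd11b2. The part of these other tissues in the levels below was not tested, and in whole-tissue RNA fewer cells of a type and less RNA per cell cannot be told apart. Nuclear protein-coding genes took 31.0% of TPM in replicate 1 and 23.2% in replicate 2, so levels are also given rescaled to the same sum over these 22015 genes in each library, called coding TPM.

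The 10 genes spanned a wide range of levels. On both scales the order from high to low was Mt1, Mt2, Hsd11b1, Sgk1, Tsc22d3, Fkbp5, Zbtb16, Nr3c1, Nr3c2 and Hsd11b2. Mt1 was at 112 ± 9.92 TPM (mean ± SD, n = 2, as for all means here) and Hsd11b2 at 0.160 ± 0.0566 TPM. Neighbours whose libraries overlapped, and whose order is therefore not settled, were Mt1 and Mt2, Hsd11b1 and Sgk1, Sgk1 and Tsc22d3, and Tsc22d3 and Fkbp5. Fkbp5 and Zbtb16 overlapped in deposited TPM and not in coding TPM. Mt2 and Hsd11b1, Zbtb16 and Nr3c1, Nr3c1 and Nr3c2, and Nr3c2 and Hsd11b2 did not overlap on either scale. In the second transcript file, however, Zbtb16 and Nr3c1 overlapped, at 31.2 and 24.2 TPM against 21 and 28 TPM in replicates 1 and 2. The order of these 2 genes is therefore not settled either. In that file the mean of Fkbp5 (60.8 TPM) lay above that of Tsc22d3 (55.7 TPM).

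**Figure D1:**
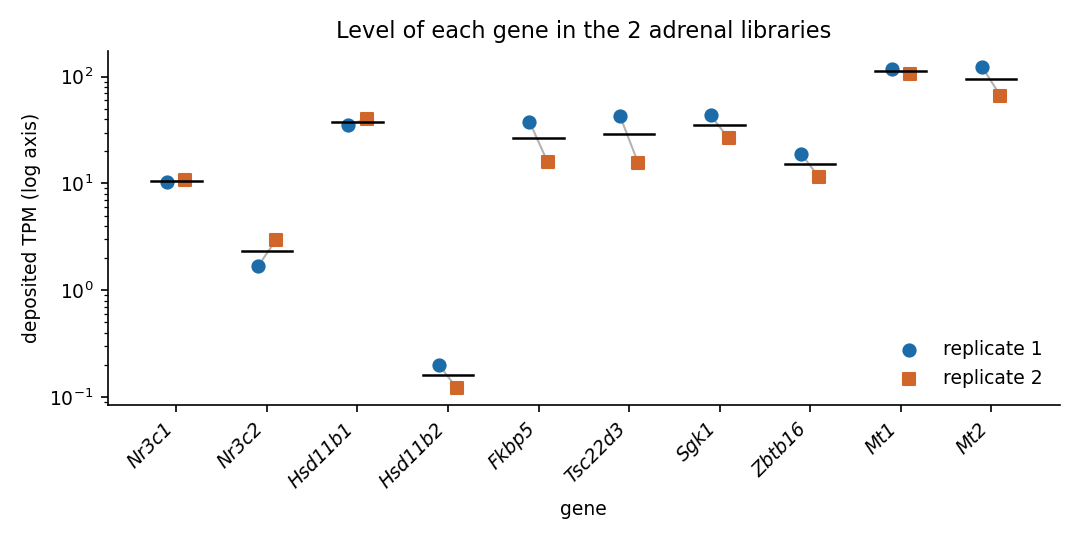
Deposited TPM of the 10 genes in replicate 1 (circles) and replicate 2 (squares) on a log axis, with the mean as a black bar. The metallothioneins lie near 100 TPM, Hsd11b2 lies below 1 TPM in both libraries, and Fkbp5 and Tsc22d3 show the widest gaps.

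Between the libraries, 2 of the 9 genes with enough counts to test passed: Nr3c2, higher in replicate 2, and Tsc22d3, higher in replicate 1. A gene passed when its counts differed at least 2-fold with an adjusted p under 0.05 in a two-sided exact binomial test, adjusted by Benjamini and Hochberg over 14780 genes, and 6.87% of all genes tested passed, 1.74% as higher in replicate 1 and 5.13% as higher in replicate 2. At any fold, 9 of the 9 tested members had an adjusted p under 0.05, beside 54.2% of all genes, and 5 of these were higher in replicate 1 (27.5% of all genes) and 4 in replicate 2. The median log2 ratio of the 9 genes, replicate 1 over replicate 2, was 0.21, that of the 6 target genes was 0.44, and that of all genes tested was -0.01, with quartiles of -0.29 and 0.20. The receptors and Hsd11b1 were lower in replicate 1 while 5 of 6 target genes were higher in it. When a variation of 0.2 between animals was assumed (edgeR exact test), 0 of 9 members passed, 3 had an unadjusted p under 0.05, and the adjusted p was 0.320 for Nr3c2 and 0.188 for Tsc22d3. With the spike-ins as scaling all log2 ratios rose by 0.89, which turned Nr3c1 to 0.57, Hsd11b1 to 0.29 and Mt1 to 0.64, and 5279 genes then passed as higher in replicate 1 and 237 as higher in replicate 2, instead of 257 and 758. The directions given here are therefore relative to the bulk of genes.

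**Figure D2:**
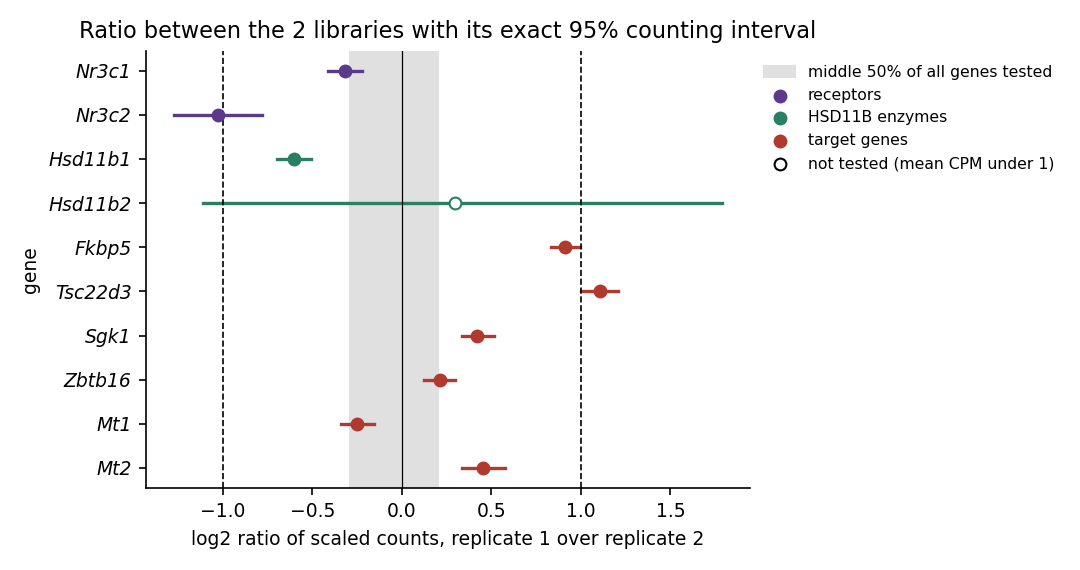
Log2 ratio of scaled counts, replicate 1 over replicate 2, for each gene, with the exact 95% interval from counting error. Dashed lines mark a 2-fold difference and the grey band holds the middle 50% of all genes tested, so Tsc22d3 and Fkbp5 stand to the right, Nr3c2 to the left, and the interval of Hsd11b2 spans both sides of 0.

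The glucocorticoid receptor gene was the more abundant receptor. Nr3c1 (ENSMUSG00000024431.15, chr18:39410545-39519421, minus strand) had 1725 counts and 10.27 TPM in replicate 1, and 1762 counts and 10.69 TPM in replicate 2. The levels nearly coincided in deposited TPM, while coding TPM was 33.1 and 46.0. Its scaled counts were 1.25-fold higher in replicate 2 (95% interval 1.17 to 1.33). In replicate 1, 26.3% of nuclear protein-coding genes had a higher level than Nr3c1, and 20% in replicate 2.

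Nr3c2 (ENSMUSG00000031618.13, chr8:76899442-77245012, plus strand) had 217 counts and 1.67 TPM in replicate 1, and 362 counts and 2.95 TPM in replicate 2. It was 2.04-fold higher in replicate 2 (95% interval 1.72 to 2.42, adjusted p = 3.92e-16, exact binomial test). This value lay at the edge of the 2-fold rule, and the gene missed that rule with DESeq2 size factors (log2 ratio -0.92), with total counts as scaling (-0.97), with spike-ins (-0.13) and in the second transcript file (-0.98). Within a library, where scaling does not enter, Nr3c1 was 6.15 times the level of Nr3c2 in replicate 1 and 3.62 times in replicate 2. Nr3c1 was thus the higher of the pair in both libraries, by 4.89 ± 1.79 times in the gene table and 5.43 ± 1.35 times in the second file.

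The receptor transcripts were not assigned alike by the 2 transcript files. The first file is built on the alignment and the second directly on the reads, and a transcript's share is its part of the gene's TPM. Nr3c1-203 led in the first file with 59.9% and 34.5% in replicates 1 and 2, whereas Nr3c1-204 led in the second with 28.7% and 30.5%. Nr3c1-202 took 4.6% and 15.3% in the first file and 11.8% and 20.1% in the second, and Nr3c1-208 took 18.1% to 23.8% throughout. For Nr3c2 the files were closer. Nr3c2-203, a full-length coding transcript of 5675 bases, held 36.9% and 22.7% in the first file and 31.8% and 21.5% in the second. Nr3c2-208, annotated as a target of nonsense-mediated decay, held 19.0% and 37.3% in the first and 15.5% and 28.2% in the second. It was the leading Nr3c2 transcript of replicate 2 in both files and had 34.5 and 131.2 estimated counts in the first. Nr3c2-203, by contrast, had 121.2 and 145.3. The decay-annotated transcript thus differed more between the libraries (log2 ratio -2.20 and -1.76 in the first and second file) than the coding transcript from the same start (-0.55 and -0.34). Nr3c2-201, Nr3c2-204, Nr3c2-206 and Nr3c2-207 held 0.0% to 26.9%, and each of these except Nr3c2-206 was at 0 in at least 1 library of a file.

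The enzyme pair was strongly one-sided towards Hsd11b1. Hsd11b1 (ENSMUSG00000016194.14, chr1:193221634-193264075, minus strand) had 1609 counts and 35.35 TPM in replicate 1, and 2000 counts and 40.2 TPM in replicate 2. At most 7.69% of nuclear protein-coding genes had a higher level than Hsd11b1 in either library. It was 1.52-fold higher in replicate 2 (95% interval 1.42 to 1.62), under the 2-fold rule. Hsd11b2 (ENSMUSG00000031891.6, chr8:105518755-105523988, plus strand) had 12 counts and 0.20 TPM in replicate 1, and 8 counts and 0.120 TPM in replicate 2. It was not tested, since its mean CPM (counts scaled to the library's total) was under 1, and its ratio of 1.23 (95% interval 0.462 to 3.46) gave no direction at this depth. Hsd11b1 was 177 times the level of Hsd11b2 in replicate 1 (95% interval 101 to 343 from counting error) and 335 times in replicate 2 (170 to 777). The intervals of the libraries overlapped.

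The choice of Hsd11b1 transcript rested on the file. Hsd11b1-205, which starts at the most upstream site (chr1 position 193264075), held 79.6% and 69.3% in the first file and 0.6% and 1.9% in the second. In the second file Hsd11b1-202 held 37.5% and 33.6%, Hsd11b1-201 held 34.7% and 30.5%, and Hsd11b1-203 held 25.5% and 32.7%. No start site of Hsd11b1 can be called the main one from these values. Hsd11b1 overlaps Lamb3 on the opposite strand, with 30 and 61 counts, and the strand setting of the authors' counting is not given in the sources used here. Hsd11b2 has 1 annotated transcript.

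The Hsd11b1 enzyme draws its cofactor NADPH from H6pd, the hexose-6-phosphate dehydrogenase of the endoplasmic reticulum. H6pd was at 45.85 and 35.96 TPM with a log2 ratio of -0.05, close to the median of all genes. None of 8 cofactor and transport genes passed, beside 6.87% of all genes tested, and their median was 0.03. At any fold, 4 had an adjusted p under 0.05 as higher in replicate 1 and 1 as higher in replicate 2, Slc37a4, the glucose-6-phosphate transporter, at 4.07 and 4.67 TPM (log2 ratio -0.48). The highest were Abcb1b, a drug and steroid export pump, at 725.52 and 471.21 TPM, Pgd, a pentose phosphate dehydrogenase, at 96.05 and 74.15 TPM, and G6pdx, the glucose-6-phosphate dehydrogenase, at 53.13 and 37.34 TPM. Counts of Abcb1b were not whole numbers, so some reads were shared with another entry.

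Fkbp5 and Tsc22d3 stood apart from the other target genes in the size of their difference. Fkbp5 (ENSMUSG00000024222.17, chr17:28399094-28517527, minus strand) had 3869 counts and 38.01 TPM in replicate 1, and 1684 counts and 15.88 TPM in replicate 2. Its scaled counts were 1.88-fold higher in replicate 1 (95% interval 1.78 to 1.99), just under the 2-fold rule, which it met with DESeq2 size factors at a log2 ratio of 1.01. Tsc22d3 (ENSMUSG00000031431.13, chrX:140539528-140600659, minus strand) had 2760 counts and 42.97 TPM in replicate 1, and 1050 counts and 15.58 TPM in replicate 2. It was 2.15-fold higher in replicate 1 (95% interval 2.00 to 2.31, adjusted p = 4.69e-107, exact binomial test). It kept a log2 ratio of at least 1.09 under every scaling, filter and file tried. Fkbp5 overlaps AC154912.5 and AC154912.3, entries on the same strand with 57 and 14 counts and with 82 and 22 counts, which were higher in replicate 1 as well.

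Sgk1 and Zbtb16 showed smaller differences in the same direction. Sgk1 (ENSMUSG00000019970.15, chr10:21882184-21999903, plus strand) had 2483 counts and 43.63 TPM in replicate 1, and 1517 counts and 26.4 TPM in replicate 2, a 1.34-fold higher scaled count in replicate 1 (95% interval 1.26 to 1.43). Zbtb16 (ENSMUSG00000066687.5, chr9:48654297-48836222, minus strand) had 2544 counts and 19.0 TPM in replicate 1, and 1799 counts and 11.39 TPM in replicate 2, a 1.16-fold higher count (95% interval 1.09 to 1.23). Neither reached the 2-fold rule.

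The metallothioneins, neighbours on chromosome 8, went in different directions relative to the bulk of genes. Mt1 (ENSMUSG00000031765.8, chr8:94179082-94180327, plus strand) had 1945 counts and 119.03 TPM in replicate 1, and 1894 counts and 105.0 TPM in replicate 2. Its scaled counts were 1.19-fold higher in replicate 2 (95% interval 1.12 to 1.27), a log2 ratio within the quartiles of all genes tested (-0.29 and 0.20). Mt2 (ENSMUSG00000031762.7, chr8:94172664-94173568, plus strand) had 1597 counts and 123.73 TPM in replicate 1, and 955 counts and 66.66 TPM in replicate 2. Its scaled counts were 1.37-fold higher in replicate 1 (95% interval 1.26 to 1.49). Neither passed the 2-fold rule. With spike-ins as scaling both were higher in replicate 1, at log2 ratios of 0.64 for Mt1 and 1.35 for Mt2, and Mt2 then passed. The level of Mt1 was 0.962 times that of Mt2 in replicate 1 and 1.58 times in replicate 2, and 1.15 and 1.87 times in the second file, so which of them was the higher in replicate 1 depended on the file. Mt1-201 held 96.9% to 98.2% of Mt1 in both files. Mt2-202, which starts inside the gene, held 37.9% and 35% of Mt2 in the first file and 0.0% in the second, where Mt2-201 held 100%. The ratio between libraries of Mt2-201 alone was nearly the same in both files (log2 0.40 and 0.47), as was that of Mt1-201 (-0.25 and -0.23). Mt2 overlaps the antisense gene Gm45774, with 8 and 3 counts.

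None of 6 tested genes of metal response passed, beside 6.87% of all genes tested. Their median log2 ratio was 0.22, in the direction of Mt2. At any fold 4 of the 6 had an adjusted p under 0.05, all higher in replicate 1 (27.5% of all genes). Their highest levels were those of Cp, the copper oxidase ceruloplasmin, at 18.92 and 13.11 TPM, Gclc, of glutathione synthesis, at 14.26 and 8.50 TPM, and Slc39a14, a zinc importer, at 11.49 and 8.59 TPM. Mtf1, the factor that binds metal response elements, was at 8.03 and 4.81 TPM with a log2 ratio of 0.59, larger than that of Mt2. Mt3, the metallothionein known from brain, had 27 and 19 counts and was not tested, and Mt4 was at 0 counts in both libraries.

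Within Tsc22d3, Fkbp5, Sgk1 and Zbtb16, the difference between libraries was uneven over the transcription starts in both transcript files. Transcripts were grouped when their starts lay within 100 bases of the next, and the estimated counts of a group were summed. These estimates share reads among transcripts of a gene, so the ratios are given without a test. They are estimates for whole transcripts and not for the starts alone. The gap between the log2 ratios of 2 starts of a gene does not depend on the scaling between libraries. Uneven starts were not particular to the target genes. In Nr3c1, the start of Nr3c1-203 had log2 ratios of 0.32 and 0.18 in the first and second file. That of Nr3c1-202 and Nr3c1-204 had -2.16 and -0.58. How common such gaps are over all genes was not computed.

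In Tsc22d3, the start of Tsc22d3-201 and Tsc22d3-205 (chrX, near 140543187) had 2294.1 estimated counts in replicate 1 and 623.0 in replicate 2, a log2 ratio of 1.59, and 1.67 in the second file. Tsc22d3-201 is annotated as coding and held 77.0% and 53.7% of the gene's TPM in the first file. The distant upstream start of Tsc22d3-203 (chrX, 140600659), also annotated as coding, had 297.7 and 195.6 counts, a log2 ratio of 0.32, and 0.46 in the second file. The excess of Tsc22d3 in replicate 1 thus lay mainly at the downstream start. Tsc22d3-202, a noncoding transcript that starts nearby at 140542668, went the other way, with 162.2 and 228.4 counts in the first file and 11.1 and 230.2 in the second.

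In Fkbp5, the start of Fkbp5-201 (chr17, near 28486149) had 3537.3 and 1481.8 counts, a log2 ratio of 0.97, and 1.25 in the second file. Fkbp5-201 was the leading transcript throughout, with 76.5% and 69.7% in the first file and 54.1% and 43.3% in the second. The most upstream start, that of Fkbp5-202 and 3 others (near 28517527), had 47.6 and 52.4 counts, a log2 ratio of -0.43, and -0.42 in the second file. Fkbp5-209, from a start between them, had 15.4 and 16.8 counts in the first file and 309.0 and 359.9 in the second, with ratios of -0.40 and -0.47. Fkbp5-204, a retained intron from another upstream start, had 18.2 and 7.6 counts, with ratios of 0.91 and 0.27. The upstream starts were thus low in counts in the first file and did not share 1 direction, while the main start was higher in replicate 1 in both files. Downstream, the start of Fkbp5-205 and Fkbp5-210 had 97.6 and 18.5 counts, with ratios of 2.08 and 1.19. In the second file, the downstream groups of Fkbp5-208 and Fkbp5-213 and of Fkbp5-211 and Fkbp5-212 had 1.48 and 2.38. The excess was therefore not confined to the main start. The noncoding Fkbp5-203 held 13.8% and 20.6%, with a log2 ratio of 0.25 and 0.47. Fkbp5-212, a noncoding entry, held 10.3% and 2.2% in the second file and had no counts in the first.

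In Sgk1, the start of Sgk1-202, the one preceded by the palindrome, had 473.8 and 191.1 counts in the first file and 1608.0 and 761.7 in the second, log2 ratios of 1.02 and 0.82. The start of Sgk1-210 and Sgk1-213, farther upstream, had 629.2 and 607.9 counts in the first file and 527.9 and 477.5 in the second, log2 ratios of -0.24 and -0.11. The start of Sgk1-201 lay between these, at 0.66 and 0.26. The files did not assign the gene alike: Sgk1-201 held 33.0% and 23.7% in the first and 4.0% and 4.8% in the second, whereas Sgk1-202 held 12.4% and 7.5% in the first and 34.6% and 27.2% in the second. The order of these 3 starts by ratio was the same in both. Farther downstream, the start of Sgk1-206 had log2 ratios of 0.82 and 0.45 and that of Sgk1-208 had 0.47 and 0.43. Sgk1-206 thus lay above the start of Sgk1-201 in both files, and Sgk1-208 lay above it in the second. Of the other Sgk1 transcripts, Sgk1-210 held 11.1% to 20.1%, Sgk1-213 held 9.4% to 21.6%, Sgk1-206 held 3.5% to 18.4% and Sgk1-209, a retained intron, 2.9% to 18.5%.

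In Zbtb16, which has 2 annotated transcripts with starts close together, Zbtb16-202 had 757.8 and 386.4 counts, a log2 ratio of 0.68, and 1.02 in the second file. Zbtb16-201 had 1786.2 and 1412.6 counts, a log2 ratio of 0.05, and 0.04 in the second file. Zbtb16-201 held 53.1% and 63.7% of the gene in the first file and 56.3% and 71.7% in the second. The small difference of the whole gene was thus assigned mainly to Zbtb16-202 in both files. The transcripts also differ in length, 5114 bases for Zbtb16-201 and 2505 for Zbtb16-202, so the gap cannot be placed at the starts.

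**Figure D3:**
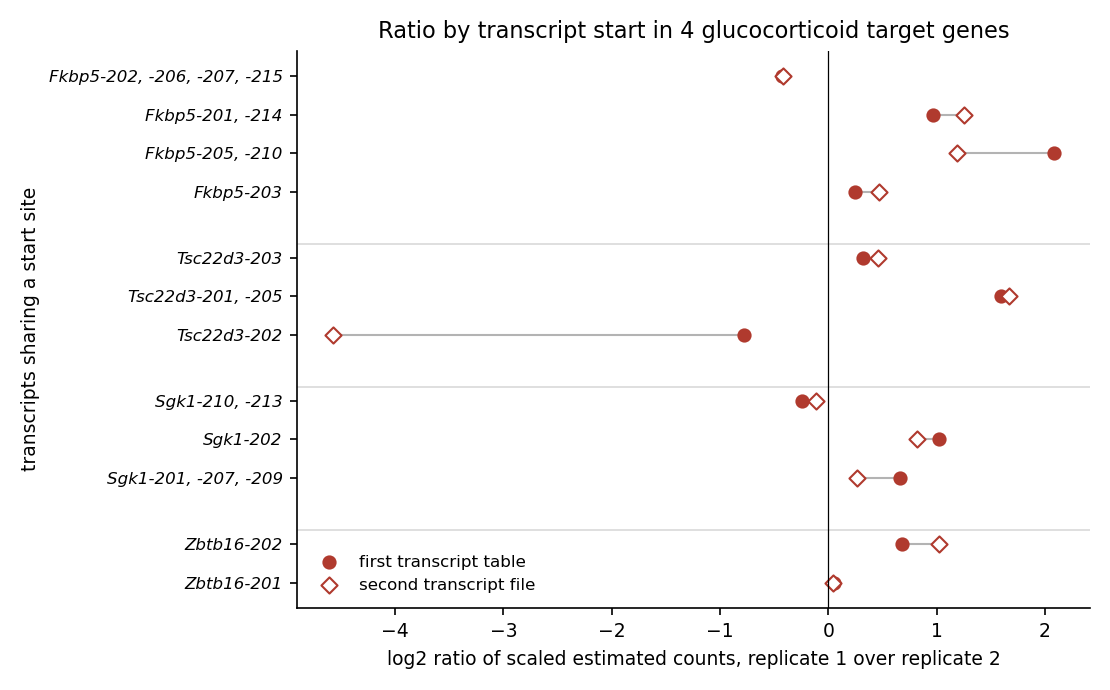
Log2 ratio of scaled estimated counts, replicate 1 over replicate 2, for each group of transcripts that share a start, in the first transcript table (filled) and the second file (open), for starts with at least 100 estimated counts over both libraries in each file. Within each gene 1 group of transcripts lies far to the right of another in both files. An example is 1.59 and 1.67 for the group of Tsc22d3-201 against 0.32 and 0.46 for Tsc22d3-203.

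Other glucocorticoid-induced genes, taken from a list, did not move as 1 group. Of 23 tested, 5 passed as higher in replicate 1 (1.74% of all genes) and 2 as higher in replicate 2 (5.13% of all genes). The median log2 ratio was 0.33. Higher in replicate 1 were Per1, a clock gene, at 46.06 and 7.34 TPM (4.61-fold by scaled counts), Ddit4, an inhibitor of mTORC1, at 29.81 and 5.04 TPM (4.41-fold), Errfi1, an inhibitor of the EGF receptor, at 25.03 and 4.82 TPM (4.35-fold), Cebpd, a transcription factor, at 3.56 and 0.660 TPM (4.00-fold), and Zfp36, which destabilises cytokine mRNA, at 7.88 and 2.89 TPM (2.05-fold). Higher in replicate 2 were Bcl6, a transcriptional repressor, at 7.43 and 12.94 TPM (2.34-fold), and Tat, the tyrosine aminotransferase of liver, at 0.440 and 1.13 TPM (3.05-fold). The genes of highest level did not pass: Pck1, of gluconeogenesis, was at 246.48 and 246.37 TPM, Txnip, an inhibitor of thioredoxin, at 172.79 and 214.83 TPM, and Rgs2, a regulator of G protein signalling, at 162.51 and 71.05 TPM. By scaled counts Pck1 was 1.37-fold and Txnip 1.53-fold higher in replicate 2, and Rgs2 1.81-fold higher in replicate 1. At any fold, 15 of the 23 had an adjusted p under 0.05 as higher in replicate 1 (27.5% of all genes). Another 6 had it as higher in replicate 2, beside 54.2% of all genes in either direction. Tat is a liver gene, and the liver markers were also higher in replicate 2 (6 of 6 passed, median log2 ratio -3.29). Their part in the value of Tat was not tested.

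Most genes of the list that passed as higher in replicate 1 are also known to be induced quickly by stimuli other than glucocorticoid. Immediate early genes, kept as a separate list, were higher in replicate 1 in all 10 tested cases, 8 of which passed (1.74% of all genes). The immediate early genes had a median log2 ratio of 1.62 and summed levels of 550 and 72.5 TPM. The highest of them were Nr4a1, a nuclear receptor that ACTH is known to induce, at 350.39 and 4.09 TPM (70.2-fold), Jun at 93.19 and 43.47 TPM, which did not pass, and Nr4a3 at 26.49 and 5.98 TPM (3.6-fold). The others that passed were Junb, Nr4a2, Egr1, Fosb, Atf3 and Fos, with log2 ratios of 1.23 to 3.93. Heat shock genes gave 4 that passed of 8, all higher in replicate 1 (1.74% of all genes), with a median of 0.98. Those that passed were Bag3 (2.86-fold), Hspa1b (8.23-fold), Hspa1a (7.15-fold) and Dnajb1 (2.94-fold). The counts of Hspa1a and Hspa1b, near-identical copies, were partly shared. Hspd1, Hspe1 and Hspb1 had the highest levels of that list and did not pass, at log2 ratios of 0.36, 0.30 and -0.43. The part of the genes of these lists in the difference of Tsc22d3 and Fkbp5 was not tested.

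The partners of the receptors stayed within 2-fold. None of 12 chaperones and co-chaperones passed, beside 6.87% of all genes tested, and the median log2 ratio was 0.25. At any fold, 10 of the 12 had an adjusted p under 0.05, all higher in replicate 1 (27.5% of all genes). Hspa8, the constitutive HSP70, was at 986.0 and 420.58 TPM, Hsp90ab1 at 712.56 and 451.01 TPM and Hsp90aa1 at 274.99 and 190.75 TPM. The log2 ratios of Hspa8 (0.88) and of Dnaja1, also of this list (0.90), were close to that of Fkbp5 (0.91). Those of Hsp90ab1 and Hsp90aa1 were 0.20 and 0.00. Fkbp4, the co-chaperone that competes with Fkbp5 for HSP90, was at 81.36 and 54.25 TPM with a log2 ratio of 0.20. The level of Fkbp5 was accordingly 0.467 times that of Fkbp4 in replicate 1 and 0.293 times in replicate 2, and in the second file the mean was 0.424 ± 0.178 times. Fkbp5 was thus below Fkbp4 in both libraries. None of 12 coregulators passed, again beside 6.87% of all genes tested, and their median was 0.12. Among them were the corepressor Ncor1 at 61.89 and 42.18 TPM and Nrip1 at 23.02 and 22.05 TPM.

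The sodium transport genes that Sgk1 and the mineralocorticoid receptor regulate in kidney were at low counts where they form the channel. None of 9 tested passed, beside 6.87% of all genes tested, and their median log2 ratio was 0.05. Nedd4, a ubiquitin ligase, was at 130.07 and 91.37 TPM, and Wnk1, a kinase, at 64.04 and 43.94 TPM. Subunits of the epithelial sodium channel were near the limit of detection, with 41 and 33 counts of Scnn1a, 6 and 4 of Scnn1b and 2 and 2 of Scnn1g, and Kcnj1, the potassium channel, was at 0 counts in both libraries. A count of 0 allows up to 3 counts per library. Of the related steroid receptors, Esr1 was at 4.52 and 2.49 TPM and did not pass. Pgr had 6 and 15 counts. Esr2 was at 0 in the gene table, with 7.71 and 13.0 estimated counts in the second transcript file.

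**Figure D4:**
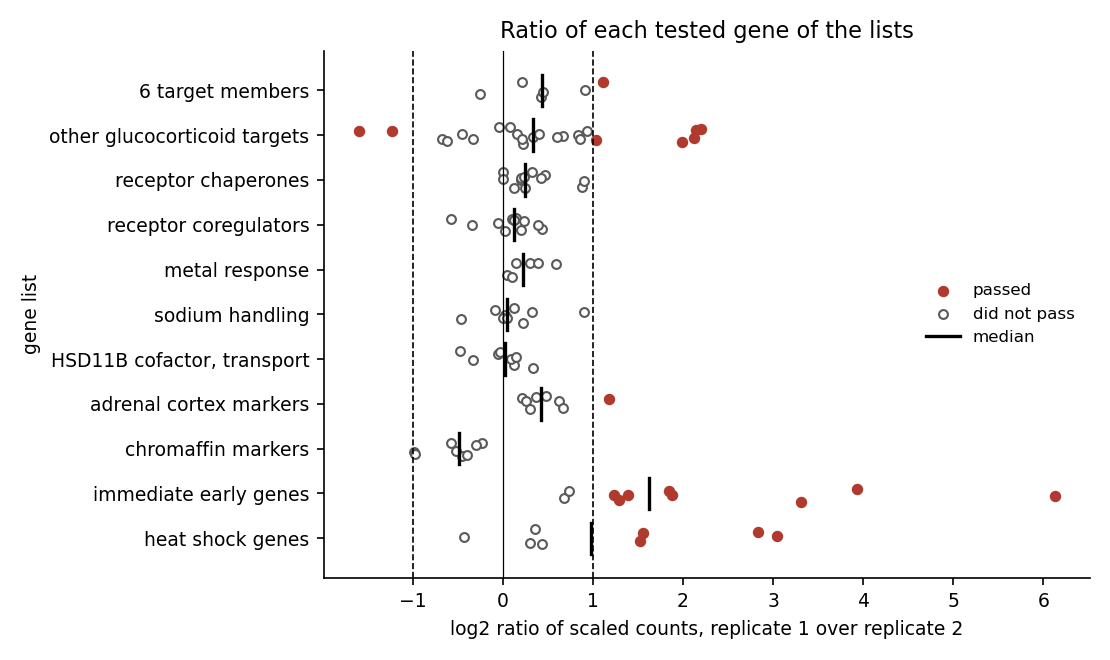
Log2 ratio of scaled counts, replicate 1 over replicate 2, for each tested gene of 11 lists, with genes that passed filled and the median as a bar. The target members have a median of 0.44 and the other glucocorticoid targets one of 0.33, between the chromaffin markers at -0.48 and the immediate early genes at 1.62.

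Markers of both adrenal cell classes also differed between the libraries. The adrenal cortex markers were higher in replicate 1 in 8 of 8 cases (median log2 ratio 0.42), of which Nr5a1, the master regulator of steroidogenic cells, passed at 159.83 and 52.55 TPM. The highest cortex markers, Star, Hsd3b1 and Cyp11a1, had log2 ratios of 0.62, 0.21 and 0.48. The chromaffin markers were lower in replicate 1 in 8 of 8 cases (median -0.48), and the highest of these, Chgb, Chga and Th, had log2 ratios of -0.99, -0.52 and -0.23. The log2 ratios of Nr3c2 (-1.03), Hsd11b1 (-0.60), Nr3c1 (-0.32) and Mt1 (-0.25) had the sign of the chromaffin list, and those of Zbtb16 (0.21), Sgk1 (0.42), Mt2 (0.45), Fkbp5 (0.91) and Tsc22d3 (1.11) that of the cortex list. Other lists also had the sign of the chromaffin list: the adipocyte, liver and pancreas markers had medians of -0.34, -3.29 and -14.58. Macrophage, endothelium and stroma markers had medians of 0.25, 0.08 and 0.37 with none passed, 2 of 8 adipocyte markers (Ucp1 and Elovl3) passed as higher in replicate 2, and lymphocyte markers, with 28 and 39 counts in all, were too low to test. The part of tissue composition in the ratios of the 10 genes was not tested. Leaving genes at least 32-fold higher in replicate 2, among them the pancreas markers, out of the scaling changed neither the members that passed nor the number of genes that passed.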

How the data were processed

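Per the file headers, the values are on mm10 with annotation M21. Each library has a gene table and a transcript table of expected counts and TPM that the authors made from a transcriptome alignment, and a second transcript file, made by the authors directly from the reads, of estimated counts and TPM. Each transcript's percent of its gene's TPM was also deposited and was recomputed here. The aligner and the counter remain not given in the sources used here. Of the table entries, 26345 name no gene and stayed out of the tests.

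Expected counts were rounded, and a two-sided exact binomial test set each gene's count in 1 library against the other, for mean CPM of 1 or more. Library sizes were scaled by TMM of edgeR 4.0.16 (R 4.3.3; factors 1.02 and 0.982), p-values were adjusted by Benjamini and Hochberg over 14780 genes, and log2 ratios had 0.5 added to each count. Passing took an adjusted p under 0.05 and a 2-fold difference. Intervals are exact 95% limits and, like the limit of 3 counts for a 0, cover counting error only (PCR copies were not marked by molecular identifiers). Spike-ins took 0.843% and 1.50% of counts. All 10 members had counts whole within 0.01. The test was checked on simulated data. All 10 members are named, with transcripts of at least 10% of TPM in either library of either file, and of each of 19 other lists the 3 tested genes of highest mean TPM, and those that passed; some list members count in totals but are not reported here by name. The members and lists were chosen with earlier results of these data known. Alternatives were other scalings (DESeq2 1.42.0 size factors, total counts, spike-ins), filters, a 1.5-fold threshold, the second file, protein-coding genes only, the edgeR exact test at a coefficient of variation of 0.2, other pseudocounts and each replicate left out. A scaling without genes at least 32-fold higher in replicate 2 was added after seeing the data. Other tools were scipy 1.17.1, numpy 2.4.6 and pandas 2.3.3 under Python 3.11.15, with plots from matplotlib 3.10.9.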

Additional observations from a re-analysis of the deposited data

How the results depend on the processing

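Against 2 members and 1015 genes that passed, 1 member passed with total counts as scaling (Tsc22d3) and 1 in the second transcript file (Tsc22d3). With spike-ins as scaling, 5 members (Fkbp5, Tsc22d3, Sgk1, Zbtb16 and Mt2) and 5516 genes passed, and the log2 ratios of Nr3c1, Hsd11b1 and Mt1 reversed to 0.57, 0.29 and 0.64, since this scaling moves every gene by the same amount. At a 1.5-fold threshold, 4 members (Nr3c2, Hsd11b1, Fkbp5 and Tsc22d3) and 2438 genes passed. With the edgeR exact test at a coefficient of variation of 0.2, 0 members and 408 genes passed, and 3 members and 1209 genes had an unadjusted p under 0.05. Without a filter 1967 genes passed, and with a mean CPM of at least 5, 346. With DESeq2 size factors, which moved the median of all genes by 0.1, 2 members again passed, but these were Fkbp5 (log2 ratio 1.01) and Tsc22d3, and not Nr3c2. Over all alternatives the log2 ratio ranged from 0.90 to 1.80 for Fkbp5, from 1.09 to 2.00 for Tsc22d3, from 0.42 to 1.32 for Sgk1, from 0.20 to 1.10 for Zbtb16, from 0.45 to 1.35 for Mt2 and from -1.03 to -0.13 for Nr3c2. With each replicate left out in turn, the ratio of Nr3c1 to Nr3c2 ranged from 3.62 to 6.15, that of Hsd11b1 to Hsd11b2 from 177 to 335 and that of Mt1 to Mt2 from 0.962 to 1.58. All 10 levels in TPM moved by more than 1 SD in the second file and on rescaling over protein-coding genes. Of 33 transcript shares, 21 moved by more than 1 SD in the second file; the cause was not tested. Depth limits Hsd11b2, at 12 and 8 counts. No paired analysis was possible because the series has 1 group.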
